A study of Mus musculus with 16 samples.

Results

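The genes described here are the splicing factors of 7 families, taken by symbol from the count tables: every gene whose symbol starts with Srsf, Hnrnp, Snrp, Lsm, Sf3a, Sf3b, U2af or Prpf followed by a number or a letter. These were 83 of 22114 genes, made up of 12 SR protein genes (Srsf), 20 hnRNP genes, 12 snRNP genes (Snrp), 14 Lsm genes, 9 SF3A and SF3B genes, 3 U2AF genes and 13 Prpf genes. The symbol rule used no measured value. It took in Lsmem1, which encodes a membrane protein that only shares the letters, and it left out symbols such as Snrnp70, which are given with the other spliceosome genes. All libraries were poly(A) RNA from DN3 thymocytes of C57BL/6 mice, the CD4- CD8- CD25+ CD44- stage at which T-cell progenitors rearrange Tcrb, and each library came from several pooled mice. In the first count table, GFPhi (3 libraries) and GFPlo (3 libraries) cells were sorted from mice that carried both TetOP-H2B-GFP KI/+ and the Lmo2 transgene driven by the CD2 promoter (Lmo2Tg), which had received doxycycline for 6 weeks and had then been chased for 2, so that GFPhi cells were those that had diluted the H2B-GFP label least. In the second table, DN3 cells came from 6-week-old mice of 4 genotypes: wild type (WT, 3 libraries), p21-/- (2 libraries, lacking Cdkn1a), Lmo2Tg (2 libraries, here a and b since their columns could not be tied to numbered samples) and Lmo2Tg;p21-/- (2 libraries, LMO2-p21 KO in the labels). The GFP groups thus had no control without the Lmo2 transgene, and p-values measure the spread between these pools of mice. The study profiled GFPhi and GFPlo cells of 3 independent cohorts, so the 2 fractions of a cohort may be paired. The main test did not pair them.

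Introns are removed from pre-mRNA by the spliceosome, which is built from small nuclear RNAs and their proteins. Sm proteins, which some of the Snrp genes encode, and Lsm proteins form rings around these RNAs. Other Snrp genes encode proteins of the U1 or U2 particle. U2AF and the SF3A/SF3B complexes recognise the 3′ end of the intron, and Prpf proteins belong mainly to the U4/U6.U5 particle that makes the spliceosome active. SR proteins and hnRNPs bind exons and introns and tip the choice of splice site, often in opposite directions, and many SR and hnRNP genes also control their own mRNA through exons that lead to its decay. SF3B1, SRSF2 and U2AF1 are the splicing factors most often mutated in human myeloid malignancy.

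The libraries held 26861394 to 31106213 counts in the GFP table and 13864936 to 16837667 in the genotype table. The label checks held for the transgene: Lmo2 was at 0.06 to 0.31 CPM (counts relative to the size of the library) in the 5 libraries without it and at 41.4 to 107 in the 4 Lmo2Tg and Lmo2Tg;p21-/- libraries. Cdkn1a was at 14.3 and 17.7 in p21-/- against 36.5 to 49.0 in WT, and at 4.35 and 3.50 in Lmo2Tg;p21-/- against 32.8 and 26.3 in Lmo2Tg, so the deleted gene was lower but not at 0. GFPhi library 3 stood apart. Its counts differed from the other GFPhi libraries with a chi-square per degree of freedom of 110 and 128, against 2.55 to 25.8 for every other pair of libraries within a group. It held 285 CPM of Lmo2 where the other 5 GFP libraries held 29.5 to 53.8. Its Cdkn1a level (6.56) was below that of GFPlo (8.08 to 12.0) where GFPhi 1 and 2 had 35.8 and 29.9. The counts of members called in GFPhi, and the values of some members, are therefore given with and without it. Other GFPhi results, among them those of the other gene lists and the chromosomes, are given with it only. Il2ra, which encodes CD25, ran from 1411 to 3225 CPM in the 15 libraries, whereas Ptcra, another DN3 gene, was at 132 to 186 in WT and p21-/- and at 22.4 to 55.7 in Lmo2Tg and Lmo2Tg;p21-/-. Summed over 11 B-lineage markers the level was 23.7 to 108 CPM in any library, and of 8 thymic stroma markers Pdgfra, Col1a2, Foxn1, Krt5 and Krt8 had at most 3 counts in every library. With the other 3 (Epcam, Pecam1 and Col1a1) the list summed to 179 to 313 CPM. Epcam was higher in GFPhi (log2 change 1.59) and lower in Lmo2Tg against WT (-1.46) and in Lmo2Tg;p21-/- against p21-/- (-1.61), Pecam1 was higher in the last 2 comparisons (0.48 and 0.79), and their part in the results was not tested.

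Splicing factors were among the more abundant mRNAs of DN3 cells. CPM divided by exon length in kb gave a median of 39.0 over the 81 members that passed the low-count filter in the genotype table, in WT libraries, against 7.65 over all genes tested, and 76 of the 81 lay above the median of all genes. In GFPhi the medians were 27.0 and 8.80, with 72 of 80 members above it. The 2 tables were scaled separately, so levels are compared within a table. The hnRNP genes had the highest family median in WT (87.2 CPM per kb), followed by the U2AF genes (64.8), the SF3A/SF3B genes (50.4), the SR genes (45.2), the snRNP genes (40.03), the Prpf genes (19.7) and the Lsm genes (18.9). In GFPhi the order was another one, with the hnRNP genes (53.8) ahead of the SF3A/SF3B (48.9), SR (46.2), snRNP (26.6), Prpf (23.1), U2AF (19.96) and Lsm genes (15.9), and the levels of several members differed strongly between the tables, as given at the end.

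Levels differed widely within each family. In WT, Hnrnpa1 and Hnrnpa2b1, the core A/B hnRNPs, stood at 321 and 315 CPM per kb, and Hnrnpr was the lowest hnRNP gene at 11.8. Snrpb, which encodes the Sm proteins B and B′, stood at 155 and Snrpe, another Sm ring protein, at 106. Among SR genes Srsf2 was at 150 and Srsf6 at 142, although the exons of Srsf2 overlap those of Mettl23 and Mfsd11 on the other strand and neither the labels nor the methods say whether counting used the strand. The deposited tables carry the words reverse (GFP) and no (genotypes) in their names, which may stand for the strand setting, so that the 2 tables may treat overlapping genes differently. Hnrnpd, Hnrnpf, Hnrnph3, Hnrnpr, Snrpd3, Sf3b2, Sf3b4, Lsm14a, U2af1l4, Srsf4 and Prpf39 also overlap exons of another gene on the other strand. Hnrnpa3, Hnrnpm, Snrpa1 and U2af1l4 do so on their own strand. The counts of all these genes are less certain, and some further members have such overlaps too. Lsm4 (106) was followed at a distance by Lsm14a (32.2), an RNA-granule protein. Sf3b1 (77.4) and Sf3b2 (72.1) led the U2 snRNP proteins, U2af2 (92.7) and U2af1 (64.8), the large and small U2AF subunits, were far above U2af1l4 (12.0), and Prpf8 (122), the protein at the catalytic centre of the spliceosome, was followed by Prpf38b (47.9). The order in GFPhi differed for some of these: U2af1 was at 10.6, below U2af1l4 (19.96), and Hnrnpa1 was at 17.1.

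Sums over a family differed between genotypes for some families and overlapped for others. The 12 snRNP genes together took 1182 to 1429 CPM in WT, 1203 and 1312 in p21-/-, 1218 and 1387 in Lmo2Tg and 996 and 1100 in Lmo2Tg;p21-/-, so that the last genotype lay below every other library. The same held for the SR genes, at 3263 to 3415 in WT, 3239 and 3591 in p21-/-, 3825 and 3961 in Lmo2Tg and 2803 and 3138 in Lmo2Tg;p21-/-, and Lmo2Tg lay above every other library. The U2AF sums were 529 to 596 in the first 3 genotypes and 429 and 475 in Lmo2Tg;p21-/-. In the sums of the hnRNP, SF3A/SF3B, Prpf and Lsm genes no genotype lay apart from every other library. The hnRNP sums were 11303 to 12202 in WT, 11824 and 12974 in p21-/-, 12117 and 13302 in Lmo2Tg and 10330 and 11388 in Lmo2Tg;p21-/-. In the GFP table the sum over all members was 17893 to 19365 in GFPhi and 17565 to 19594 in GFPlo.

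At the other end were 3 genes with almost no counts. Srsf1, the founding SR protein, is listed under 2 identifiers (ENSMUSG00000018379 and ENSMUSG00000098301), both with at most 2 counts in every library, so no level can be given for it here. Srsf12 reached at most 0.82 CPM in any library and passed the filter in the genotype table only. Snrpn, an imprinted Sm gene best known from brain, had 0, 0 and 1 counts in WT and 0 and 1 in p21-/-, and its exons overlap those of Snurf, which had no counts in any library.

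Lmo2Tg against WT asks what the transgene alone does to the DN3 stage. Of 81 members tested, 12 rose and 2 fell at an adjusted p under 0.05 in edgeR's quasi-likelihood test, that is 14.8% and 2.47%, where over all genes tested 19.7% rose and 16.9% fell. The median log2 change of the members was -0.01, as it was over all genes (-0.01). The calls came from 6 of the 7 families. They were 3 of 10 SR genes tested (Srsf3, Srsf5 and Srsf11 rose), 4 of 20 hnRNP genes (Hnrnph1, Hnrnpdl and Hnrnph3 rose and Hnrnpul1 fell), 3 of 12 snRNP genes (Snrpe, Snrpb2 and Snrpn rose), 2 of 14 Lsm genes (Lsmem1 rose and Lsm7 fell), Sf3b1 and Prpf39, and none of the 3 U2AF genes.

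Hnrnph1, which binds G-rich RNA near splice sites, rose most among members above 10 CPM. It stood at 886, 913 and 673 CPM in WT and at 1398 and 1346 in Lmo2Tg. The groups did not overlap, and the mean was 1.67-fold higher (log2 change 0.74, SE 0.13, adjusted p = 0.0014). Hnrnpdl, a paralogue of the RNA-binding protein Hnrnpd, stood at 436, 427 and 358 in WT and at 550 and 598 in Lmo2Tg, a 1.41-fold difference (log2 change 0.50, SE 0.12, adjusted p = 0.0076). Both hnRNP genes were lowest in WT library 3.

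Sf3b1, the U2 snRNP protein that holds the branch point, was at 939, 933 and 768 in WT and at 1253 and 1192 in Lmo2Tg (log2 change 0.47, SE 0.10, adjusted p = 0.0035). None of the other SF3A/SF3B genes passed, and the median of all 9 was -0.14. Prpf39, a U1 snRNP-associated protein, was at 125, 120 and 96.8 in WT and at 151 and 136 in Lmo2Tg (log2 change 0.34, SE 0.11, adjusted p = 0.029), and its exons overlap Fkbp3 on the other strand. Again the groups did not overlap, and WT library 3 was the lowest.

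Among SR genes, Srsf3, the smallest SR protein, was at 532, 519 and 525 CPM in WT and at 671 and 671 in Lmo2Tg, a 1.28-fold difference (log2 change 0.35, SE 0.08, adjusted p = 0.0069). Srsf5 was at 572, 572 and 458 in WT and at 693 and 760 in Lmo2Tg (log2 change 0.44, SE 0.14, adjusted p = 0.027). The SR family had the highest median of the families (0.17). The groups did not overlap in either gene. The 2 members that fell were Lsm7 and Hnrnpul1. Lsm7, part of the ring around U6 RNA, went from 29.1, 28.3 and 35.7 to 23.4 and 25.4 (log2 change -0.35, SE 0.12, adjusted p = 0.043), and Hnrnpul1 from 510, 492 and 493 to 411 and 453 (log2 change -0.21, SE 0.07, adjusted p = 0.049).

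Hnrnph1, Sf3b1, Srsf3 and Lsmem1 passed with any 1 of the 5 libraries left out, Hnrnpdl, Prpf39 and Snrpn with 4 of 5, and Hnrnph3 with none. Srsf5, Snrpe, Snrpb2 and Hnrnpul1 passed with 2 of 5, and Srsf11 and Lsm7 with 1 of 5. Without Lmo2Tg library b 5 members rose and 2 fell (16.8% and 11.4% of all genes), without library a 9 rose and 0 fell (12.5% and 10.9%) and without WT library 2 8 rose and 1 fell (16.7% and 13.8%). Genes induced by cell stress and dissociation moved with these members: 6 of 12 on that list rose in Lmo2Tg and none fell, with summed levels of 1943 and 3814 CPM against 227 to 1948 in WT. Fos was lowest in WT library 3 (3.69 against 107 and 321), the library in which Hnrnph1, Hnrnpdl, Sf3b1, Srsf5 and Prpf39 were also lowest. DN3 markers differed as well, with 8 of 12 lower in Lmo2Tg and none higher. The part of these in the calls was not tested. Without WT library 3 the log2 changes of those 5 genes were 0.61 for Hnrnph1, 0.41 for Hnrnpdl, 0.39 for Sf3b1 and 0.23 for Prpf39, which passed, and 0.35 for Srsf5, which did not (adjusted p = 0.074).

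**Figure D1:**
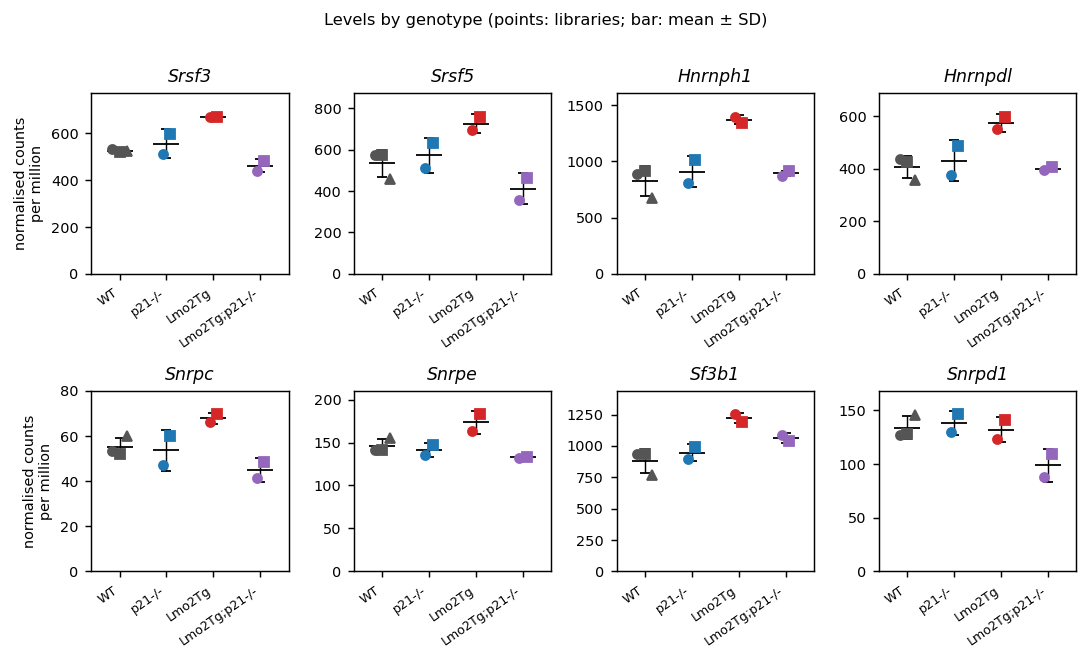
Levels of 8 splicing factor genes in the 9 genotype libraries, in CPM on an axis from 0. Points are libraries, in their order in each group, and the bar is the mean with its SD. Srsf3, Srsf5, Hnrnph1, Hnrnpdl, Snrpc and Snrpe were highest in the 2 Lmo2Tg libraries and no higher than the WT range in Lmo2Tg;p21-/-, while Sf3b1 was above WT there (1090 and 1038 against 768 to 939).

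To show what lies before these genes, the bases upstream of the start site were read from RefSeq (GRCm38.p6) for the 6 members that rose most and are above 10 CPM. One promoter was taken for each of 70 of the 83 members and for 27025 genes in all. The motifs searched, on both strands of the 250 bases before the start, were the core of the cyclic AMP response element (TGACGT), an ETS-type motif (CCGGAAG), an E-box of the kind bound by Myc (CACGTG), an E-box of the kind bound by E proteins (CAGGTG), the binding motif of Sp1 (GGGCGG), the motif of the factor NF-Y (CCAAT), the start-site motif of the TATA-binding protein (TATAAA), a motif of the zinc-finger factors related to Gata3 (AGATAA) and, by name, the CArG box that serum response factor binds, none of which contains another. The 3 printed below are those with a match of TGACGT or CCGGAAG. Bases that the gene annotation places inside the gene are left out. Capitals mark matches to the cyclic AMP, CCAAT and ETS-type motifs, on either strand.
Hnrnph1, chr11:50376740-50376989, plus strand: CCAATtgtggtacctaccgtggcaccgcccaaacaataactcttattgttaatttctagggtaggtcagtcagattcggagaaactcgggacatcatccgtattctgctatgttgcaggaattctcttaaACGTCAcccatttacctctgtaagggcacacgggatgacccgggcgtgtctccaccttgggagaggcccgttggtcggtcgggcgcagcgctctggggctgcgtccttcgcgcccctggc
Srsf3, chr17:29032410-29032627, plus strand: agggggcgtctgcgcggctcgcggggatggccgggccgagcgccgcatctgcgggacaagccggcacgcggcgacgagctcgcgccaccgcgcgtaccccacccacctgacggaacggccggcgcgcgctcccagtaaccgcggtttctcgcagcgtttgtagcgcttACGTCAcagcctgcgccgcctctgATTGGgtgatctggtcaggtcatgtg
Srsf5, chr12:80945249-80945498, plus strand: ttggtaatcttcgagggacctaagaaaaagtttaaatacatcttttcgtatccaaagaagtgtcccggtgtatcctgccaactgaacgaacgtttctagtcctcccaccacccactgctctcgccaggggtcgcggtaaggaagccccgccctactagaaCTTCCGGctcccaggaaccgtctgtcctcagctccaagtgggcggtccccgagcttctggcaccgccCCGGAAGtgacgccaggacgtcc
TGACGT, the core of a cyclic AMP response element, stood before Hnrnph1 and Srsf3 and nowhere among the other 4, and 6.52% of all promoters and 15.7% of the 70 members' promoters held it. CCGGAAG, an ETS-type motif, stood at 2 places before Srsf5 and was in 25.7% of members' promoters and 7.07% of all. CCAAT was in 47.1% of members' promoters and 34.5% of all, GGGCGG in 64.3% and 33.0%, and TATAAA in 7.14% and 13.0%. None of the 70 promoters held a CArG box, which 1.41% of all promoters held. The members' promoters were also richer in G and C than all promoters (median 60.0% against 52.0%), and these shares are a description of letters only.

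Loss of p21 on its own left no call among these genes. In p21-/- against WT 0 of 81 members rose and 0 fell, with 1 at an unadjusted p under 0.05, and over all genes 0.0507% rose and 0.0591% fell. DESeq2 and limma-voom called 0 members too. The median log2 change of the members was 0.01. Hnrnph1 was at 810 and 1010 CPM in p21-/-, which overlapped the WT values, and its log2 change was 0.14 with an SE of 0.13. Srsf3, whose gene on chromosome 17 (29032628 to 29043373) ends 47.6 kb before the deleted Cdkn1a (29090976 to 29100727), was at 512 and 599 against 519 to 532 in WT (log2 change 0.08, SE 0.08). With 2 libraries in 1 group, differences of this size were not detectable.

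Lmo2Tg;p21-/- against Lmo2Tg asks what removing p21 does once the transgene is present. Here 7 of 81 members fell and 0 rose (8.64% and 0%), against 3.59% and 3.35% of all genes, and 33 members and 3023 of all 11840 genes were at an unadjusted p under 0.05. Most values were small and below 0: 70 of 81 members had a value below 0, and their median was -0.15 where that of all genes was 0.02. All 12 snRNP genes, all 10 SR genes, all 9 SF3A/SF3B genes and all 3 U2AF genes lay below 0, with medians of -0.31, -0.27, -0.12 and -0.31. The hnRNP genes (18 of 20 below 0, median -0.13) and Lsm genes (11 of 14, -0.11) were mostly below 0, and the Prpf genes were split (7 of 13, -0.02). The 7 members called were Srsf3, Srsf5, Hnrnph1, Hnrnpdl, Snrpc, Snrpe and Snrpb2. This comparison shares the Lmo2Tg libraries with the one against WT, so a high value in those 2 libraries enters both, in opposite directions.

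**Figure D2:**
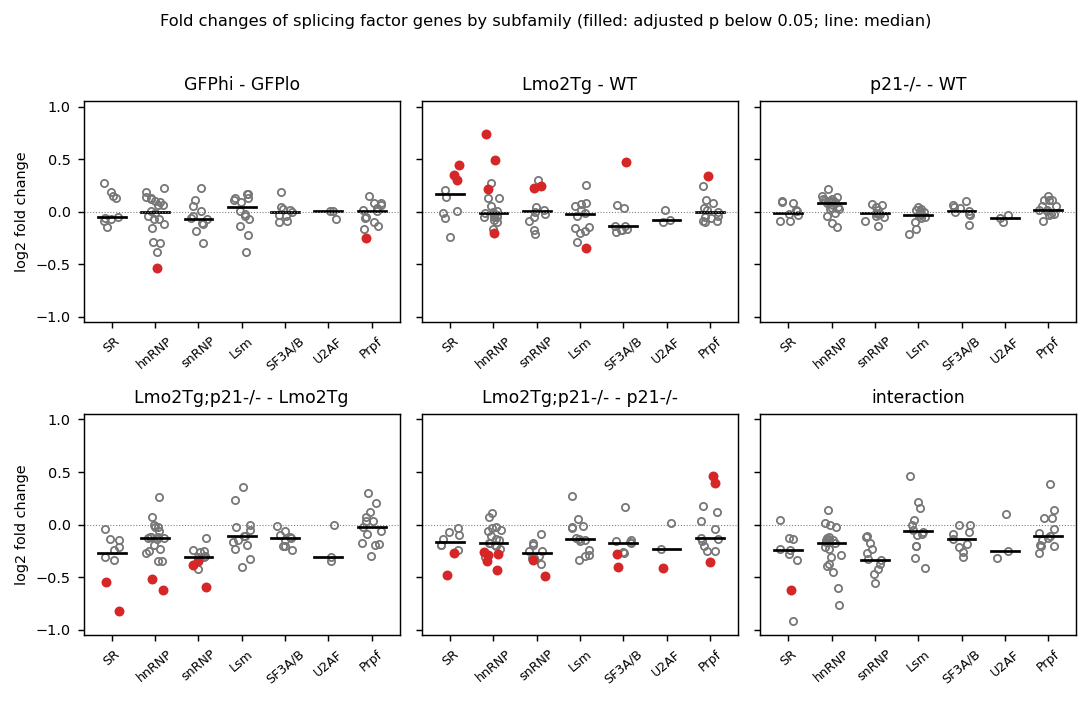
Log2 fold changes of the splicing factor genes by family in the 5 comparisons and the interaction. Each point is a gene, filled points passed an adjusted p of 0.05, and the line is the family median over all tested members. Snrpn, Lsmem1 and Srsf12, whose counts are low, are in the medians but not drawn. In Lmo2Tg;p21-/- minus Lmo2Tg the snRNP, SR and U2AF medians lay at -0.31, -0.27 and -0.31, and in p21-/- minus WT the family medians lay between -0.06 and 0.09.

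Srsf5 fell most, from 693 and 760 CPM in Lmo2Tg to 358 and 466 in Lmo2Tg;p21-/-. The ratio of means was 0.567 (log2 change -0.82, SE 0.15, adjusted p = 0.014), and the WT values lay between (458 to 572), apart from an overlap with Lmo2Tg;p21-/- library 2. Hnrnph1 went from 1398 and 1346 to 875 and 911 (log2 change -0.62, SE 0.15, adjusted p = 0.031). Srsf3 went from 671 and 671 to 441 and 481 (log2 change -0.54, SE 0.09, adjusted p = 0.0087). None of these groups overlapped.

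The 3 snRNP genes called are general spliceosome parts. Snrpc, the U1 protein that helps bind the 5′ splice site, was at 66.2 and 69.7 in Lmo2Tg and at 41.2 and 48.7 in Lmo2Tg;p21-/- (log2 change -0.60, SE 0.13, adjusted p = 0.023). Snrpe, a protein of the Sm ring, was at 164 and 183 and then at 132 and 134 (log2 change -0.39, SE 0.09, adjusted p = 0.03). Snrpb2, the U2 B″ protein, was at 102 and 114 and then at 82.3 and 87.6 (log2 change -0.35, SE 0.08, adjusted p = 0.035). None of the 3 overlapped between the groups. Hnrnpdl was at 550 and 598 and then at 395 and 406 (log2 change -0.52, SE 0.13, adjusted p = 0.04). Both Lmo2Tg;p21-/- values again lay below both Lmo2Tg values.

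These calls rest on few libraries. Without Lmo2Tg;p21-/- library 1 no member passed (12 at an unadjusted p under 0.05, with 0.165% of all genes higher and 0.33% lower), without Lmo2Tg library b 1 fell (2% of all genes), without Lmo2Tg;p21-/- library 2 3 fell (1.31%) and without Lmo2Tg library a 4 fell (2%). Under DESeq2 15 members fell and 1 rose, against 4.97% and 3.9% of all genes. With any 1 of the 4 libraries left out, 11 or 12 of the 12 snRNP genes lay below 0, with medians from -0.43 to -0.18. Stress and dissociation genes moved here too, with 4 of 12 lower and summed levels of 794 and 1182 CPM in Lmo2Tg;p21-/- against 1943 and 3814 in Lmo2Tg. The part of these genes in the result was not tested.

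Lmo2Tg;p21-/- against p21-/- gives the effect of the transgene without p21, and shares the Lmo2Tg;p21-/- libraries with the comparison above. Of 81 members 4 rose and 13 fell, where 16.3% of all genes rose and 14.4% fell, so that 13 of 81 is near the background and 4 of 81 is below it. The median of the members was -0.17, against 0.00 over all genes, and 67 of 81 lay below 0. Of the 4 that rose, 2 (Lsmem1 and Snrpn) are genes of low count. The 13 that fell came from every family but the Lsm genes: Srsf3 and Srsf5, 5 hnRNP genes (Hnrnpa3, Hnrnpc, Hnrnpd, Hnrnpf and Hnrnpm), Snrpd1 and Snrpd3, Sf3a1 and Sf3b4, U2af1, and Prpf19.

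Snrpd1, an Sm ring protein, fell most, from 130 and 147 CPM in p21-/- to 87.8 and 110 in Lmo2Tg;p21-/- (log2 change -0.48, SE 0.12, adjusted p = 0.012). U2af1, the subunit that reads the AG at the end of the intron, was at 161 and 168 and then at 114 and 133 (log2 change -0.42, SE 0.10, adjusted p = 0.0086). Sf3b4 was at 69.1 and 68.0 and then at 46.5 and 57.1 (log2 change -0.40, SE 0.11, adjusted p = 0.015). The groups did not overlap in any of the 3.

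Among RNA-binding factors Srsf5 was at 513 and 633 in p21-/- and at 358 and 466 in Lmo2Tg;p21-/- (log2 change -0.48, SE 0.15, adjusted p = 0.036). Hnrnpa3, of the A/B hnRNPs, was at 1090 and 1262 and then at 811 and 934 (log2 change -0.43, SE 0.13, adjusted p = 0.024). Prpf19, a ubiquitin ligase at the core of the Prp19 complex, was at 299 and 333 and then at 231 and 261 (log2 change -0.36, SE 0.11, adjusted p = 0.029). Each of the 3 was lowest in Lmo2Tg;p21-/- library 1.

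The other 2 that rose were Prpf genes. Prpf40b was at 19.2 and 19.0 in p21-/- and at 25.9 and 26.6 in Lmo2Tg;p21-/- (log2 change 0.46, SE 0.11, adjusted p = 0.011). Prpf39, the U1-associated protein that also rose in Lmo2Tg against WT, was at 115 and 122 and then at 161 and 150 (log2 change 0.40, SE 0.12, adjusted p = 0.024). Both sets of values were separate between the groups.

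Again 1 library on each side decided the count. Without p21-/- library 2 no member fell and 1 rose, with 7.75% of all genes lower and 10.3% higher, and without Lmo2Tg;p21-/- library 1 no member fell and 2 rose, with 6.56% and 9.23% of all genes. Without p21-/- library 1 10 members fell (10.2% of all genes), and without Lmo2Tg;p21-/- library 2 16 fell (12.8%). Lsmem1 alone passed with any 1 of the 4 libraries left out. Genes of cell division were lower beside the splicing factors: 16 of 20 fell in Lmo2Tg;p21-/- against p21-/-, with summed levels of 5099 and 6587 CPM against 7702 and 8506. Whether the splicing factors followed the share of dividing cells was not tested, and in pools of cells fewer cells with a message and less message per cell cannot be told apart.

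**Figure D3:**
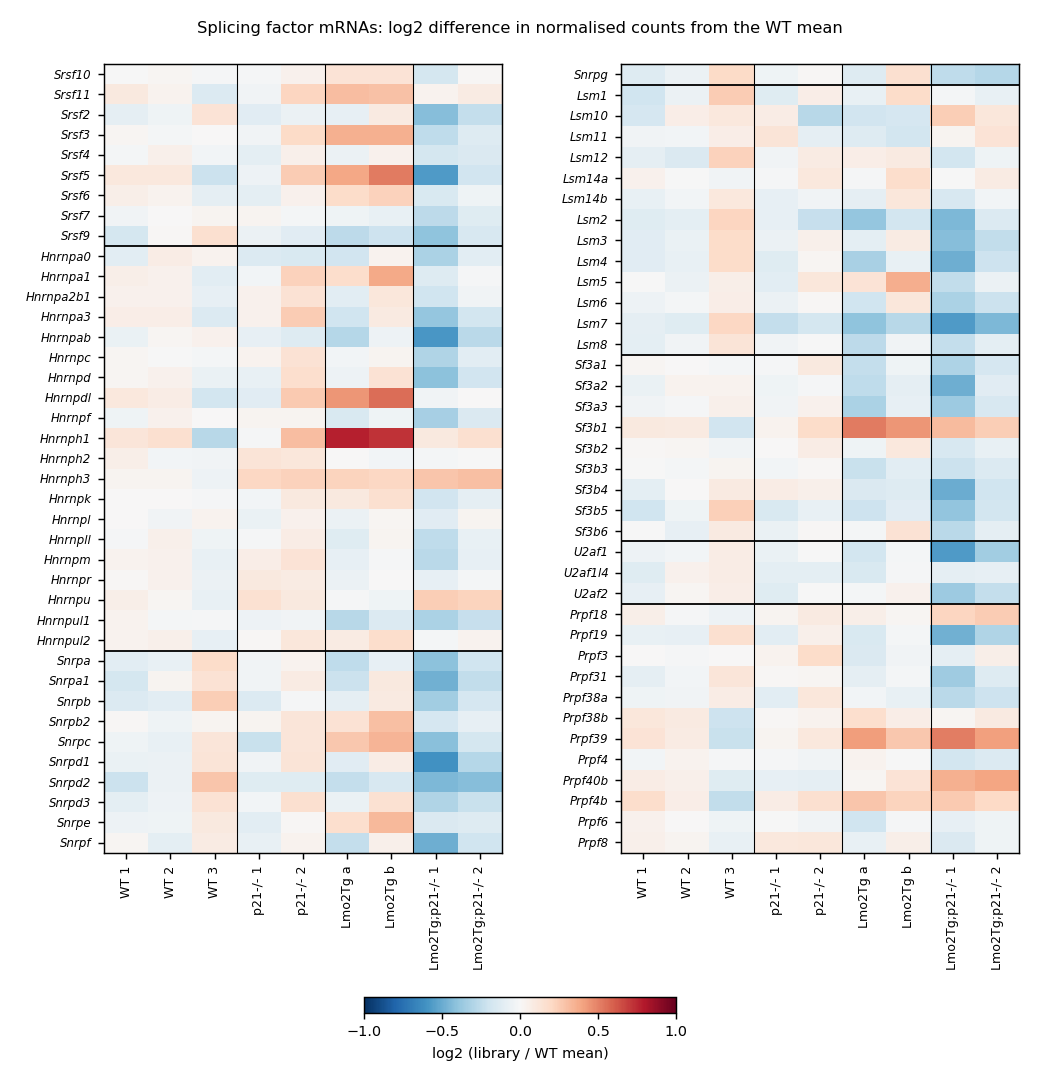
Log2 difference of each library from the WT mean for 77 splicing factor genes in the genotype table, ordered by family and then by name, with black lines between families and genotypes. Snrpn, Lsmem1, Srsf12 and the rows of Srsf1, all of very low count, are not drawn. The 2 Lmo2Tg libraries were above WT for Hnrnph1 and Sf3b1, and most snRNP genes were below WT in Lmo2Tg;p21-/- library 1, whose summed level over the members was the lowest of the 9 (20575 CPM).

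The interaction, the change with p21 loss in Lmo2Tg minus that in mice without the transgene, tests whether the 2 alleles add up. Of 81 members 0 rose and 1 fell (0% and 1.23%), against 0.279% and 1.1% of all genes. The one call was Srsf3, with a log2 value of -0.62 (SE 0.12, adjusted p = 0.038): its log2 change with p21 loss was -0.54 in Lmo2Tg mice and 0.08 in mice without the transgene. Srsf5 (-0.92, SE 0.21, adjusted p = 0.059), Hnrnph1 (-0.76, SE 0.20, adjusted p = 0.089), Hnrnpdl (-0.60, SE 0.18, adjusted p = 0.11) and Snrpc (-0.55, SE 0.17, adjusted p = 0.13) had values of like size that did not pass. All 12 snRNP genes lay below 0 (median -0.33). The Srsf3 call passed with p21-/- library 1 left out and with none of the other 8 libraries left out, where the value ran from -0.50 to -0.70 and the adjusted p from 0.073 to 0.21.

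The 3 genes mutated in myeloid malignancy followed 3 different orders of genotype. Sf3b1 was highest in Lmo2Tg (1222 ± 42.9 CPM, SD, n = 2), then in Lmo2Tg;p21-/- (1064 ± 36.6, n = 2), p21-/- (947 ± 67.7, n = 2) and WT (880 ± 97.2, n = 3), and of the comparisons made only Lmo2Tg against WT passed. Srsf2 was at 444 ± 38.0 in Lmo2Tg, 444 ± 36.6 in WT, 417 ± 10.4 in p21-/- and 353 ± 33.3 in Lmo2Tg;p21-/-, and no comparison passed (adjusted p of 0.082 against Lmo2Tg and 0.1 against p21-/-). U2af1 was at 168 ± 7.84 in WT, 164 ± 5.02 in p21-/-, 157 ± 12.9 in Lmo2Tg and 123 ± 13.2 in Lmo2Tg;p21-/-, the last being lower than p21-/- as given above and not passing against Lmo2Tg (log2 change -0.35, SE 0.10, adjusted p = 0.057). For Srsf2 and U2af1 neither Lmo2Tg nor p21-/- passed against WT.

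GFPhi against GFPlo compares cells that had kept the label with cells that had diluted it, all from H2B-GFP;Lmo2Tg mice. Of 80 members tested 0 rose and 2 fell (0% and 2.5%), against 5.37% and 9.49% of all genes, with 12 members at an unadjusted p under 0.05. Under 0.05 unadjusted were 3871 of all 11581 genes. DESeq2 called 4 members higher and 6 lower, against 11.3% and 13.9% of all genes. The median log2 change was -0.01 and 40 of the 80 lay below 0. Hnrnpd (AUF1), which binds AU-rich messages, was at 246, 276 and 264 CPM in GFPhi and at 326, 372 and 440 in GFPlo, a ratio of 0.692 (log2 change -0.53, SE 0.12, adjusted p = 0.036). Prpf18, a second-step splicing factor, was at 86.9, 87.9 and 88.4 and at 102, 106 and 106, a ratio of 0.84 (log2 change -0.25, SE 0.05, adjusted p = 0.024). In neither gene did the groups overlap, and Hnrnpd has an antisense overlap with Gm17092.

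Without GFPhi library 3, which stood apart, more members passed. With the other 5 libraries 10 of 81 members rose and 6 fell, against 19.5% and 21.7% of all genes, and the median of the members was 0.04. Hnrnpa2b1, a core hnRNP, was at 1871 and 1957 in GFPhi 1 and 2 and at 1452, 1529 and 1658 in GFPlo (log2 change 0.31, SE 0.07, adjusted p = 0.013), while GFPhi 3 had 1598.

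Srsf9, Hnrnpc and Snrpa1 were likewise higher in GFPhi 1 and 2 than in GFPlo. Srsf9 was at 79.9 and 79.2 in GFPhi 1 and 2, at 70.0 in GFPhi 3 and at 61.4, 61.8 and 65.8 in GFPlo (log2 change without library 3 of 0.34, SE 0.06, adjusted p = 0.004). Hnrnpc, which binds U-rich tracts in introns, was at 370 and 364 in GFPhi 1 and 2, at 307 in GFPhi 3 and at 298, 297 and 319 in GFPlo (log2 change 0.28, SE 0.05, adjusted p = 0.007). Snrpa1, the U2 A′ protein, was at 87.4 and 98.4, at 70.5 and at 68.9, 70.7 and 79.3 (log2 change 0.35, SE 0.08, adjusted p = 0.015). In Hnrnpc and Snrpa1 the third GFPhi library lay among the GFPlo libraries.

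Prpf40b and Hnrnpa1 were lower in GFPhi without library 3. Prpf40b was at 19.4 and 19.2 in GFPhi 1 and 2 and at 28.0, 27.2 and 23.2 in GFPlo (log2 change -0.43, SE 0.10, adjusted p = 0.015), while GFPhi 3 had the highest value of the 6 libraries, 31.3. Hnrnpa1 was at 48.5 and 57.7 in GFPhi 1 and 2, at 55.6 in GFPhi 3 and at 63.3, 76.0 and 72.5 in GFPlo (log2 change -0.40, SE 0.11, adjusted p = 0.022). Of the 2 genes called with all 6 libraries, Hnrnpd passed with 2 of the 6 left out in turn and Prpf18 with 1, in both cases including library 3, and the adjusted p otherwise reached 0.14.

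Sf3b1 was at 998, 1003 and 1044 in GFPhi and at 905, 866 and 897 in GFPlo. The groups did not overlap, and the log2 change of 0.19 (SE 0.06, adjusted p = 0.07) did not pass with all 6 libraries, but passed without library 3 (adjusted p = 0.031) and under DESeq2 with all 6 (adjusted p = 0.00072). Srsf2 was at 606, 624 and 620 and at 582, 637 and 719 (log2 change -0.07, SE 0.09, adjusted p = 0.62). U2af1 was at 29.0, 28.1 and 25.8 and at 24.3, 29.2 and 33.8 (log2 change -0.07, SE 0.14, adjusted p = 0.74). In the last 2 genes the groups overlapped.

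**Figure D4:**
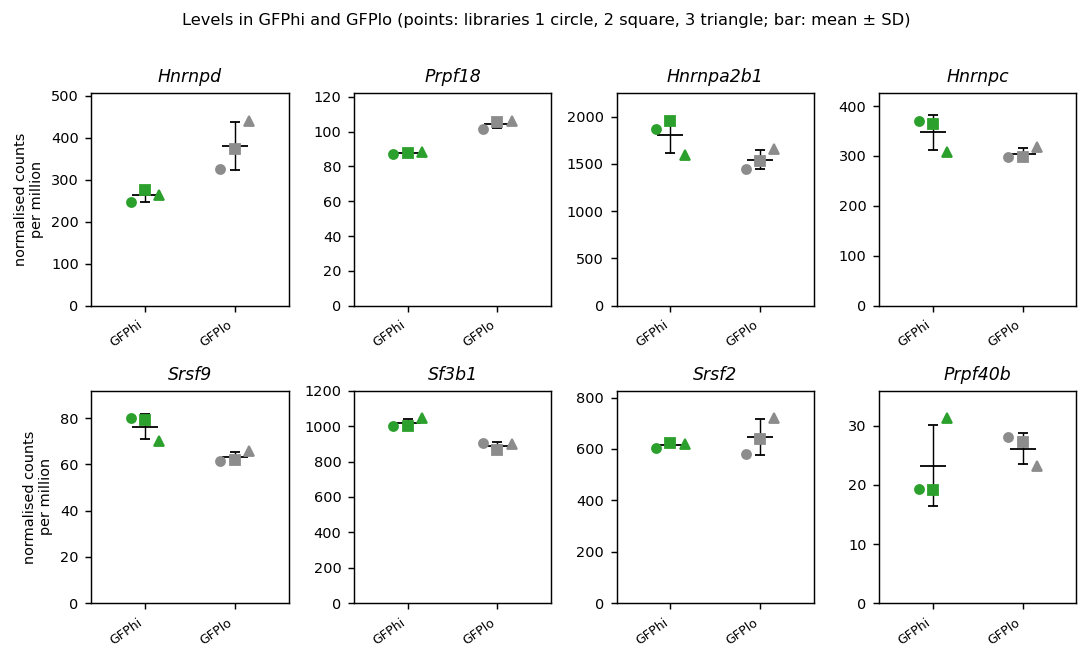
Levels of 8 splicing factor genes in the 6 GFP libraries, in CPM on an axis from 0. Points are libraries, in their order in each group, and the bar is the mean with its SD. Hnrnpd and Prpf18 were lower in all 3 GFPhi libraries, while for Hnrnpc, Hnrnpa2b1 and Prpf40b the third GFPhi point lay with or beyond the GFPlo points.

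Other genes moved beside these in the GFP table. B-lineage markers rose in GFPhi (4 of 8 tested, none lower), with summed levels of 42.3 to 108 CPM against 25.9 to 29.5 in GFPlo. All 20 cell division genes lay below 0 (median log2 change -0.29), although none passed. Genes on chromosomes 2 and 15 were low in GFPhi as a whole, with 77.6% of the 923 genes tested on chromosome 2 and 90.3% of the 464 on chromosome 15 below 0, against 43.2% elsewhere. Of the 8 members on chromosome 2, which include Prpf18, 7 lay below 0 (median -0.11, against -0.18 for all genes there), as did both members on chromosome 15, Hnrnpa1 and Prpf40b. On the other chromosomes 31 of 70 members lay below 0. The part of these in the member values was not tested.

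Snrpn and Lsmem1, left aside so far, had few counts but large ratios. Snrpn had 0, 0 and 1 counts in WT, 0 and 1 in p21-/-, 3 and 40 in Lmo2Tg and 6 and 26 in Lmo2Tg;p21-/-. Its level in Lmo2Tg was 70.7 times that in WT (exact 95% interval 12.0 to 2860), and in Lmo2Tg;p21-/- 34.6 times that in p21-/- (5.78 to 1410). The call against WT was lost without Lmo2Tg library b, which held most of the counts. In the GFP table it had 6, 1 and 10 counts in GFPhi and 80, 11 and 11 in GFPlo, a ratio of 5.81 for GFPlo over GFPhi (3.46 to 10.4) that rests on GFPlo library 1.

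Lsmem1, which is no splicing factor, had 1, 2 and 2 counts in WT, 0 and 1 in p21-/-, 38 and 32 in Lmo2Tg and 46 and 80 in Lmo2Tg;p21-/-. The ratio was 23.0 against WT (9.41 to 73.1) and 136 against p21-/- (24.0 to 5430). Every library with the transgene held more than every library without it. These intervals cover counting error only.

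The rest of the splicing machinery was described by lists of genes outside the symbol rule. Of 50 other spliceosome genes tested, 11 rose and 1 fell in Lmo2Tg against WT (19.7% and 16.9% of all genes), 2 rose and 5 fell in Lmo2Tg;p21-/- against Lmo2Tg (median -0.18), 1 rose and 3 fell against p21-/-, 1 rose and 4 fell in GFPhi, and 0 were called in p21-/- against WT or in the interaction. Over all genes 3.35% rose and 3.59% fell against Lmo2Tg, 16.3% and 14.4% against p21-/-, and 5.37% and 9.49% in GFPhi, and these shares are also the background of the next 2 lists. Zrsr1, a U2AF35-like factor of the minor spliceosome, and Bud31 rose most in Lmo2Tg (log2 change 1.37, SE 0.17, and 0.66, SE 0.11). Bud31 was at 56.9, 56.9 and 62.4 CPM in WT, at 94.5 and 91.3 in Lmo2Tg and at 61.0 and 54.8 in Lmo2Tg;p21-/-. In GFPhi Ddx23 (-0.48, SE 0.05) and Puf60 (-0.51, SE 0.06) were the lowest of the list. Genes on chromosomes 2 and 15 were low in GFPhi as a whole, and the part of chromosome in these list values was not tested.

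Of 41 other splicing regulators, 10 rose and 3 fell in Lmo2Tg against WT, 1 rose and 4 fell in Lmo2Tg;p21-/- against Lmo2Tg, 3 rose and 3 fell against p21-/-, and 2 rose and 5 fell in GFPhi. Tra2b, an SR-like activator, was at 280, 301 and 289 in WT, at 251 and 342 in p21-/-, at 440 and 463 in Lmo2Tg and at 229 and 258 in Lmo2Tg;p21-/-. It passed in the interaction (-0.92, SE 0.17, adjusted p = 0.035), as did Sfpq (-0.85, SE 0.16, adjusted p = 0.034), a paraspeckle protein, and Tra2a (-0.78, SE 0.16, adjusted p = 0.045). All 3 were highest in the 2 Lmo2Tg libraries, as Srsf3 was. In GFPhi Mbnl1 rose (log2 change 0.47, SE 0.06).

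Rnps1, a protein of the exon junction complex, was the one regulator called in p21-/- against WT. It was at 122, 124 and 144 in WT, at 54.2 and 57.0 in p21-/-, at 112 and 124 in Lmo2Tg and at 38.2 and 45.3 in Lmo2Tg;p21-/- (log2 change -1.23 in p21-/- against WT, SE 0.11, adjusted p = 0.00057). Its gene lies 4670 kb from Cdkn1a on chromosome 17. No member on that chromosome passed in p21-/-. Snrpc, 1240 kb from Cdkn1a, had a log2 change of -0.04, U2af1 at 2550 kb of -0.04 and Hnrnpm at 4550 kb of 0.10. In Lmo2Tg;p21-/- against Lmo2Tg, Srsf3 at 47.6 kb (-0.54) and Snrpc (-0.60) passed. U2af1 (-0.35), Hnrnpm, Lsm2, Hnrnpll and Srsf7 did not pass there, and Rnps1 was lower (-1.50). The part of the distance to Cdkn1a was not tested.

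Kinases of SR proteins and factors of snRNP assembly made up the last list, of 22 genes tested, which shares Prpf4b with the Prpf family. In Lmo2Tg against WT 6 rose and 4 fell. Clk1, a kinase that phosphorylates SR proteins, was at 319, 298 and 237 in WT, at 648 and 529 in Lmo2Tg and at 443 and 420 in Lmo2Tg;p21-/- (log2 change 1.047 against WT, SE 0.15, adjusted p = 0.00046). Clk3 (0.39), Clk4 (0.34), Dyrk1a (0.31), Srpk1 (0.29) and Smndc1 (0.49) also rose. Of the assembly factors Gemin8 (-0.62), Tgs1 (-0.31), Prmt5 (-0.25) and Wdr77 (-0.23) fell. None was called in GFPhi or in p21-/-, 1 fell in Lmo2Tg;p21-/- against Lmo2Tg (Smndc1, -0.66), 1 rose and 3 fell against p21-/-, and Smndc1 passed in the interaction (-0.77, SE 0.15, adjusted p = 0.036).

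Some splicing factors had very different levels in the 2 tables, which were scaled separately. Lsm7 was at 20.8 to 35.7 CPM in the genotype table and at 0.81 to 1.37 in the GFP table. Hnrnpa1 was at 925 to 1312 and at 48.5 to 76.0, and Hnrnpa3 at 811 to 1262 and at 52.4 to 74.7. U2af1 and Lsm5 were also over 4 times higher in the genotype table, and Srsf4 was lower there (45.9 to 53.8 against 164 to 191). Gaps of this size were not particular to splicing factors: 5 of 79 members (6.33%) and 487 of 11287 genes (4.31%) were over 4-fold higher in the genotype table, Gapdh among them. Both tables held DN3 cells with the Lmo2 transgene, the counting may have treated the strand differently, and no cause was tested, so the level of these genes in DN3 cells cannot be given from these files.

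**Figure D5:**
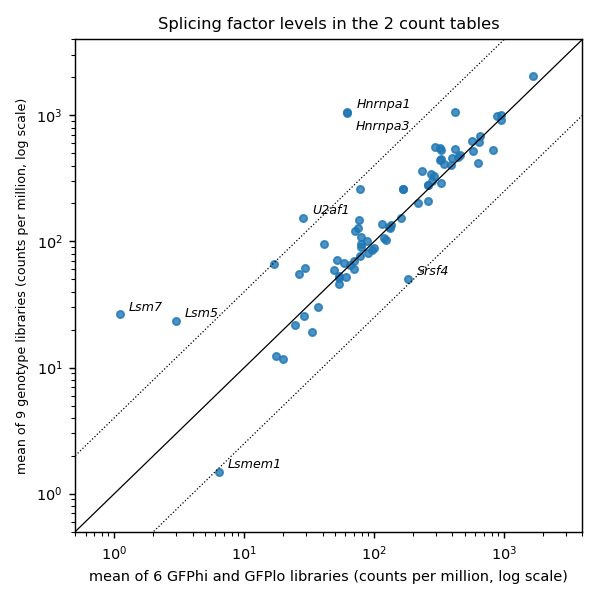
Mean level of each splicing factor gene in the genotype table against that in the GFP table, in CPM on log axes, with dotted lines at a 4-fold difference. Lsm7, Hnrnpa1, Hnrnpa3, Lsm5 and U2af1 lie beyond one line and Lsmem1 beyond the other. Srsf4, also labelled, lies just inside that other line.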

How the data were processed

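Gene counts were deposited as 2 tables, 1 for the GFP libraries and 1 for the genotypes. Per the labels and the study's methods, the authors made these count values from poly(A) RNA-seq reads of DN3 cells, and the submitters' processing notes name STAR 2.4.2a, featureCounts, limma and the build mm10. Whether counting used the strand is not stated beyond the words reverse and no in the tables' names, which may mean it. Symbols, coordinates and exon lengths came from the tables and from GENCODE M21 (82 of 83 members matched). Of the columns, 1, by its name another library of Lmo2Tg;p21-/-, matched no labelled sample and was not used. The labels give a further p21-/- sample, which no column name matched and which was not analysed here, leaving 15 libraries. CPM values were computed on TMM-scaled library sizes.

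Each table was fitted whole with edgeR 4.0.16 (R 4.3.3), using the quasi-likelihood test after filterByExpr (minimum count 10, minimum total 15), on all groups of the table, with Benjamini-Hochberg adjustment over all genes tested and a threshold of 0.05. Alternatives were RLE scaling, no filter, DESeq2 1.42.0, limma-voom (limma 3.58.1), fewer groups in the fit, the replicate number as a block, scaling without chromosomes 2 and 15, and each library left out. The scripts were tested on simulated data. The members and lists were chosen with earlier results of these data known. Named are, per comparison, the 6 called members with the largest change in each direction among those with a mean of at least 10 CPM, the 2 most abundant per kb of each family, and Sf3b1, Srsf2 and U2af1. Other members are named where a count is broken down or in the fit without GFPhi library 3, chosen after their values were seen. Ratios of low counts have exact 95% intervals. Promoter bases are RefSeq's (GRCm38.p6). Figures were drawn with matplotlib 3.10.9. Values of some genes are not reported here.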

Additional observations from a re-analysis of the deposited data

Results flagged for a closer look

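Srsf3 changed differently with p21 loss in the presence and absence of the Lmo2 transgene: the log2 value of the interaction was -0.62 (edgeR's quasi-likelihood test, adjusted p = 0.038). The 2 Lmo2Tg libraries were at 671 and 671 CPM, and all 7 other genotype libraries were at 441 to 599. Over the other ways of fitting all 9 libraries the adjusted p ran from 0.00018 to 0.048. The call was lost with any single library left out except p21-/- library 1. With each of the 9 libraries left out in turn the value ran from -0.73 to -0.50. Srsf3 lies 47.6 kb from the deleted Cdkn1a, and the part of this was not tested.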

How the results depend on the processing

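No called value of a named gene changed direction under another setting. The number of members called depended on the tool and the libraries. DESeq2 called 10 in GFPhi against GFPlo (main count 2), 16 in Lmo2Tg;p21-/- against Lmo2Tg (7) and 4 in the interaction (1), where no filter also gave 4, and fitting only the groups compared gave 8 in Lmo2Tg against WT (14). With each library left out, the counts ran from 0 to 16 in GFPhi against GFPlo, from 7 to 11 in Lmo2Tg against WT, from 0 to 4 in Lmo2Tg;p21-/- against Lmo2Tg, from 1 to 18 against p21-/- and from 0 to 5 in the interaction. The members' medians then ran from -0.076 to 0.061 in Lmo2Tg against WT, from -0.042 to 0.042 in p21-/- against WT, from -0.247 to -0.081 in Lmo2Tg;p21-/- against Lmo2Tg, from -0.251 to -0.125 against p21-/- and from -0.26 to -0.108 in the interaction. The cause of these differences was not tested. For named genes, 141 of the values with a library left out kept their side of the threshold, 65 lost significance and 1 gained it, and over the other settings 209 kept it, 9 lost it and 5 gained it, among them U2af1 and Srsf2 against Lmo2Tg under DESeq2 (adjusted p = 0.017 and 0.022). Scaling without chromosomes 2 and 15 gave 3 calls in GFPhi against GFPlo.

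Deviations of libraries of the same number correlated at 0.07, -0.08 and 0.10 (GFP table) and at -0.24 to 0.30 (genotype table). These values cannot decide whether the numbers pair the libraries. In a group of 2 libraries the deviations mirror each other, and GFPhi library 3 stood apart. With the replicate number as a block, 0 members were called in GFPhi against GFPlo, 0 in p21-/- against WT and 39 in Lmo2Tg;p21-/- against p21-/- (36 lower and 3 higher of 79, where 21.1% of all genes were lower and 21.2% higher). The adjusted p of Hnrnpd and Prpf18 in GFPhi against GFPlo was then 0.069 and 0.094. For the comparisons with Lmo2Tg and the interaction no such block could be fitted, because the numbered Lmo2Tg samples could not be matched to columns. Their column names are also the descriptions of GFPlo samples in the labels, so the 2 libraries were used without numbers, as a and b. With 2 libraries in 3 of the 4 genotypes, small differences were not detectable.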

Other observations

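Genes on lists outside splicing were also called between the genotypes. In Lmo2Tg against WT 19.7% of all genes rose and 16.9% fell. There 3 of 5 markers of later T-cell stages rose and 1 fell, with summed levels of 109 and 123 CPM against 62.0 to 69.7. Of 8 myeloid and erythroid markers tested 2 rose and 1 fell, which is near the shares of all genes. Their summed levels were 28.6 and 33.4 CPM against 21.96 to 26.97. Of 20 cell division genes 2 were lower in Lmo2Tg against WT, below the share of all genes. None was called in Lmo2Tg;p21-/- against Lmo2Tg (3.35% of all genes rose and 3.59% fell), where all 20 lay below 0 (median -0.18). Their part in the values of the splicing factors was not tested.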
